A study of Arabidopsis thaliana with 12 samples.

Results

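The plastid ribosome of Arabidopsis thaliana is built from proteins encoded in the nucleus and in the plastid, and the nuclear genes were followed here by RNA-seq in seedlings that carried mutations in GUN1, FUG1 or both. The set held 41 nuclear genes of the 36917 gene IDs in the count tables, taken by a fixed list of IDs. Of these, 9 encode proteins of the small subunit, 25 proteins of the large subunit and 7 plastid-specific ribosomal proteins (PSRP), which bacterial ribosomes mostly lack. The groups were the single mutant gun1 (allele gun1-103, line SAIL_742_A11), the single mutant fug1 (allele fug1-3, line SAIL_209_E08), the double mutant gun1 fug1 (gun1-103 fug1-3) and wild type (accession Col-0), with 3 libraries each. Both alleles come from insertion lines, so each gene is represented by 1 allele. All seedlings were 4 d old, had been kept for 2 d in cold and darkness as seeds, and grew in days of 16 h of light on a sucrose-containing medium, and total RNA of the seedlings was sequenced. The labels do not say whether replicates were separate cultures, so p-values measure the spread between these samples.

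Plastid ribosomes are of the bacterial type. Their small subunit decodes the messenger, and their large subunit forms the peptide bond and passes the chain to a tunnel. During the evolution of the chloroplast most of the genes moved to the nucleus, so that a ribosome needs proteins made in the cytosol and imported beside proteins and ribosomal RNA made inside the plastid. Loss of many of these nuclear genes stops the embryo or leaves seedlings pale. GUN1 is a pentatricopeptide repeat protein of the plastid with a role in signalling to the nucleus, and FUG1 is the plastid translation initiation factor that acts with the small subunit.

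The coding sequences are shown where they bear on how counts were assigned. The stalk protein RPL12, which recruits translation factors to the ribosome, has 3 genes within 7292 bases of chromosome 3 (TAIR10.1, chr3:10318455-10325746). The coding sequences of RPL12A (AT3G27830) and RPL12C (AT3G27850) were 93.1% identical and shared a run of 255 identical bases, whereas RPL12A and RPL12B (AT3G27840) were 77.8% identical. Over a window of 90 coding bases, RPL12A (chr3:10319002-10319091, plus strand) and RPL12C (chr3:10325319-10325408, plus strand) had the same letters, and RPL12B (chr3:10323786-10323875, plus strand) differed from RPL12A at the 16 bases in capitals. The sequences are from RefSeq, build TAIR10.1, and read 5′ to 3′.
RPL12A: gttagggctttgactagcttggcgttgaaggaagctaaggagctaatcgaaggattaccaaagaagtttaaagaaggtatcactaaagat
RPL12B: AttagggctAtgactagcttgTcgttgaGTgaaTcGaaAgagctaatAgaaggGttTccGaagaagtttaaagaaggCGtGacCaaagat
RPL12C: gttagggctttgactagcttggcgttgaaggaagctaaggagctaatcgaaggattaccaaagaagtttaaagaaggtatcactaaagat
Reads from the shared run cannot be told apart between RPL12A and RPL12C, so the split of counts between these genes is uncertain.

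The 250 bases before the annotated start were searched on both strands for motifs known from plant promoters. The site II element, spelled TGGGCC or TGGGCT and known from genes of the translation machinery, was found in 15 of 41 windows (36.6%), against 5264 of 27437 windows (19.2%) before all protein-coding nuclear genes. It was in 6 of 9 windows of small-subunit genes, 7 of 25 of large-subunit genes and 2 of 7 of PSRP genes. The telo box (AAACCCTA) was in 5 of 41 windows (12.2%, against 4.49% of all). The G-box (CACGTG) was in 3 (7.32%, against 6.49%) and the S1F element (ATGGTA) in 3 (7.32%, against 11%). The windows of 3 genes on which the results turn follow, from RefSeq, build TAIR10.1, read 5′ to 3′ towards the gene, with site II elements in capitals on either strand (GGCCCA is TGGGCC on the other strand). RPL6 lies at chr1:1503854-1504103 (minus strand) with 3 matches, RPL19A at chr4:9779974-9780223 (plus strand) with 5, of which a pair overlaps, and RPS21 at chr3:10017071-10017320 (plus strand) with none.
RPL6: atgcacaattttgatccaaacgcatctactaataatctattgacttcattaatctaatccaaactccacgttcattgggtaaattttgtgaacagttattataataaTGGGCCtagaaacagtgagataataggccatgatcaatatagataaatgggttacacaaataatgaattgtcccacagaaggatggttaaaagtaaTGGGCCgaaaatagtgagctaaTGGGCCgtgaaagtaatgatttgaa
RPL19A: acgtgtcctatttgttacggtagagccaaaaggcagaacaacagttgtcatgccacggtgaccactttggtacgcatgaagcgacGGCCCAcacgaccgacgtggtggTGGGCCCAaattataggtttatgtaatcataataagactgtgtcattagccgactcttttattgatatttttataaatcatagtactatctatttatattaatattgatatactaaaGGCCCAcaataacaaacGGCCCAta
RPS21: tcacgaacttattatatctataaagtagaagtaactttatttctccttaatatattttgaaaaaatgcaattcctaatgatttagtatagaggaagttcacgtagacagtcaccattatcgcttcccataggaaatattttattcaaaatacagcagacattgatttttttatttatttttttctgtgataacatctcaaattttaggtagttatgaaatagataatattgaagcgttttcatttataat
A match describes these letters and is not evidence of a bound factor.

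**Figure D1:**
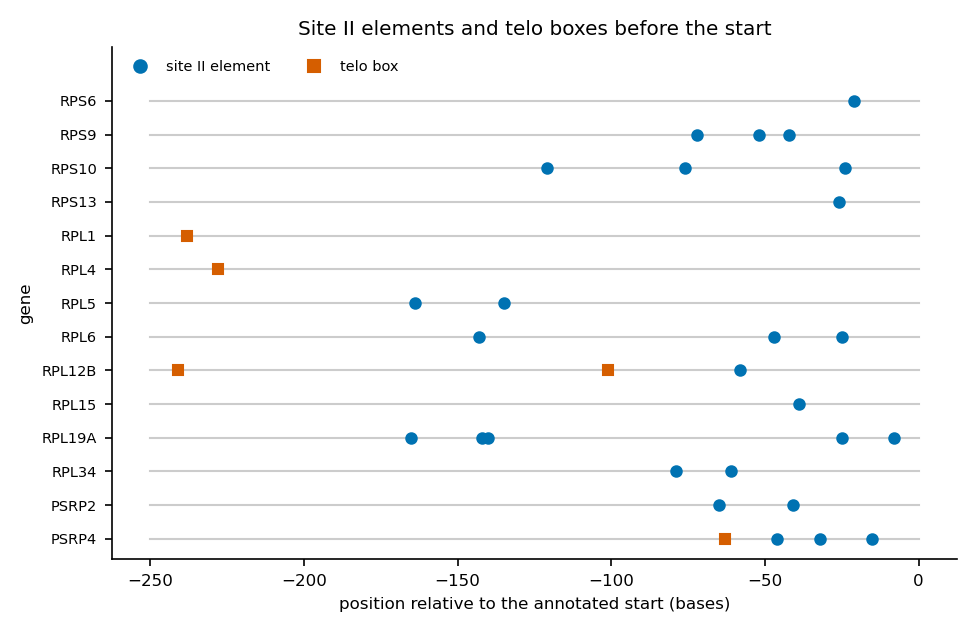
Position of site II elements (circles) and telo boxes (squares) in the 250 bases before the annotated start (x axis, in bases, 0 is the start) for 14 genes with at least 1 of either. Most site II elements of small-subunit genes lie within about the last 100 bases before the start, and 24 of the 41 genes had neither motif.

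Total counts per library ranged from 8519197 to 12360838, and the 41 genes together held 7445 to 35175 of them in 11 libraries. The library gun1 fug1 3 stood apart. It held 484 counts in these genes, it had 23881 IDs with no count (13359 to 16417 in the others), and its scaling factor was 0.0723 (0.8 to 2.05 in the others). A tested gene of the set had 2 to 46 counts in that library (median 10) and 19 to 1767 (median 321) in the other 11, so the main counts and the leading genes are also given without that library. GUN1 (AT2G31400) had 8.94, 9.44 and 7.2 CPM (counts relative to the TMM-scaled library total) in gun1 and 7.89, 10.7 and 8.4 CPM in gun1 fug1, against 34.9 ± 4.73 CPM in wild type (SD, n = 3). FUG1 (AT1G17220) had 5.7, 11.2 and 9.29 CPM in fug1 and 9.94, 8.45 and 15.6 CPM in gun1 fug1, against 35.5 ± 9.07 CPM in wild type. Each targeted gene was low in every library labelled as its mutant, with reads left in each. FUG1 had 33.8, 17.8 and 13.9 CPM in gun1, which overlapped wild type (log2 fold change -0.70 ± 0.31, edgeR adjusted p = 0.188). The 13.9 CPM of gun1 3 lay below the 15.6 CPM of gun1 fug1 3, so the level of FUG1 does not tell these libraries apart.

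Of the 41 genes, 39 passed the filter on low counts and were tested. RPL12B had 0 counts in all 12 libraries, and PSRP3/2 (AT5G15760), a second gene for the small-subunit protein PSRP3, had 0 to 18 counts per library. Per kilobase of exon, the median over the 39 genes was 24.7 CPM per kb in gun1, 22.9 CPM per kb in fug1 and 18 CPM per kb in the double mutant, against 32.6 CPM per kb in wild type. The highest gene was PSRP5 in gun1 (67.1 CPM per kb) and RPL29 in wild type (81 CPM per kb). In wild type PSRP5 came next with 78.6 CPM per kb, and RPL19A was the lowest with 6.02 CPM per kb.

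Many of the nuclear genes were lower in all 3 mutants than in wild type, and none was called higher. A gene was called where the edgeR quasi-likelihood test gave an adjusted p under 0.05 over the 15371 genes tested. In gun1, 8 of 39 genes were called lower (20.5%), against 2.42% of all genes tested called lower, 3.52% called higher and 5.94% called in either direction. In fug1, 15 of 39 were called lower (38.5%), against 7.88% of all genes lower, 9.94% higher and 17.8% in either direction. In gun1 fug1, 24 of 39 were called lower (61.5%), against 9.88% of all genes lower, 12% higher and 21.9% in either direction. The count of members called lower thus stood above the background share in each mutant.

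The median log2 fold change of the 39 genes was -0.47 in gun1, -0.50 in fug1 and -0.77 in the double mutant, while the median of all genes lay between -0.03 and 0.02. All 3 mutant libraries lay below all 3 wild-type libraries for 17 genes in gun1 (13.3% of all genes tested), 23 in fug1 (19.7%) and 31 in the double mutant (20.9%). All mutant libraries lay above wild type for 2 genes in fug1 (21.1% of all genes tested), among them PSRP6, and for 0 in gun1 (14.8%) and gun1 fug1 (13.8%). Without the library gun1 fug1 3, 11, 17 and 22 genes were called lower in gun1, fug1 and gun1 fug1, and 0, 1 and 1 higher. The medians were -0.48, -0.50 and -0.62, and 9.81%, 22.9% and 25.4% of all genes were called in either direction. RPS13 and RPL21 then lost their call in gun1 fug1 and RPL12A in gun1, while RPL3, RPL5, RPL28 and PSRP1 gained one in gun1, and RPS13 and PSRP1 were among those that gained one in fug1. In all, 7 genes were called lower in all 3 mutants: RPS21, RPL6, RPL12A, RPL19B, RPL24, RPL31 and PSRP3/1. Leaving out gun1 fug1 3, these were at -1.55, -1.27, -1.19, -1.41, -1.38, -1.42 and -2.05 in gun1 fug1, in that order, all called. The 3 comparisons share their wild-type libraries.

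**Figure D2:**
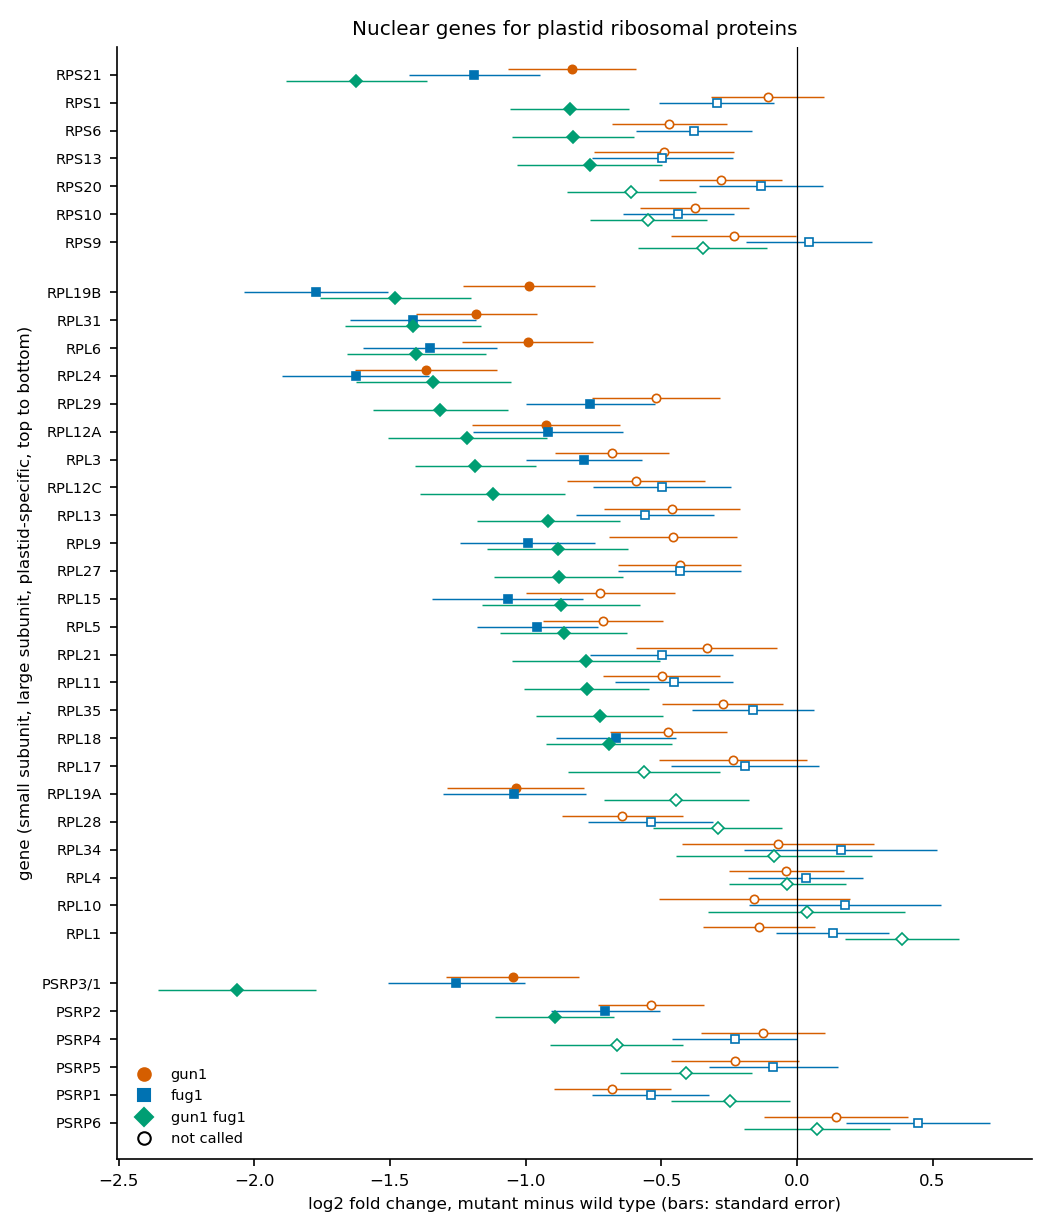
Log2 fold change against wild type (x axis) with its standard error for 37 of the 39 tested genes, in gun1 (circles), fug1 (squares) and gun1 fug1 (diamonds). Genes are grouped from top to bottom as small subunit, large subunit and plastid-specific, and filled symbols mark called genes. Filled symbols all lie left of 0, and the largest fall is that of PSRP3/1 in gun1 fug1 at -2.06.

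Counts of calls moved with single libraries. For gun1, the 8 calls became 3 without wild type 1, 2 without wild type 2, 2 without gun1 2, 2 without gun1 3 and 13 without gun1 1. In the same order, 1.41%, 0.972%, 2.05%, 1.14% and 10.9% of all genes were called. For fug1, the 15 calls became 9 without wild type 1, 8 without wild type 2 and 7 without fug1 2 (7.31%, 6.09% and 10.3% of all genes). For gun1 fug1 the 24 calls became 15 without gun1 fug1 1 (11.9% of all genes). Whichever library was left out, 2 genes stayed called in gun1 (RPL24 and RPL31), 7 in fug1 (RPS21, PSRP3/1, RPL5, RPL6, RPL19B, RPL24 and RPL31) and 10 in the double mutant (RPS21, PSRP3/1, RPL3, RPL6, RPL12C, RPL19B, RPL24, RPL27, RPL29 and RPL31).

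Root and seed markers were summed over lists. Over a list of 8 root genes (EXPA7, EXPA18, COBL9, PRP3, PER44, LRX1, PIN2 and THAS1), levels were 11.8 to 69.8 CPM in gun1, 31.9 to 46.4 CPM in fug1 and 33.6 to 72 CPM in gun1 fug1, against 2.48 to 10.9 CPM in wild type. Of these 8 genes, 3 were called higher in gun1, 6 in fug1 and 7 in the double mutant. Over 6 seed storage and oil body genes, levels were 37.3 to 77.8 CPM in gun1, 35 to 52.4 CPM in fug1 and 55.9 to 79.2 CPM in gun1 fug1, against 5.7 to 15.5 CPM in wild type. For both lists every mutant library lay above every wild-type library. Of the 4 seed genes tested, 3, 4 and 3 were called higher in gun1, fug1 and gun1 fug1, and no marker was at 0 in every library of any group.

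Markers of green tissue (6 genes for Rubisco and light harvesting) summed to 6360 to 9946 CPM in gun1, 9123 to 10451 CPM in fug1 and 4223 to 9085 CPM in gun1 fug1, against 7839 to 8849 CPM in wild type. Markers of dividing cells (6 genes) summed to 3.86 to 4.44 CPM in gun1, 3.19 to 4.07 CPM in fug1 and 1.86 to 7.2 CPM in gun1 fug1, against 3.46 to 4.64 CPM in wild type. Ranges of both of these lists overlapped between mutants and wild type, except for the green list in fug1, whose lowest library lay above the highest of wild type. Of the 6 green and 3 dividing genes tested, 0 were called in gun1 or fug1 with all 12 libraries. Without the library gun1 fug1 3, 1 green gene was called lower in gun1, and 1 lower and 1 higher in fug1. In gun1 fug1, 1 of each list was called lower. The medians there were -0.17 for green and -0.66 for dividing genes, and 0.15 and -0.92 without the library gun1 fug1 3. With the mean log2 level of the root genes (root score) as a covariate, 0 of 39 genes were called in any mutant. Their medians were -0.19, -0.09 and -0.31 in gun1, fug1 and gun1 fug1. Of all genes tested, 0.0651%, 0.0455% and 0.852% were then called. Without the library gun1 fug1 3 the medians under this covariate were -0.03, 0.12 and -0.0045. No member was called there, against 0.29%, 0.951% and 2.15% of all genes. The score was 0.06, 1.59 and 2.86 in gun1, 2.21, 1.73 and 2.23 in fug1 and 2.47, 2.91 and 1.04 in the double mutant, against -1.29, -1.45 and 0.26 in wild type, so it separates the mutants from wild type nearly as the genotypes do. The part of tissue make-up in the results was not tested, and in whole seedlings fewer green cells and less RNA per cell cannot be told apart.

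**Figure D3:**
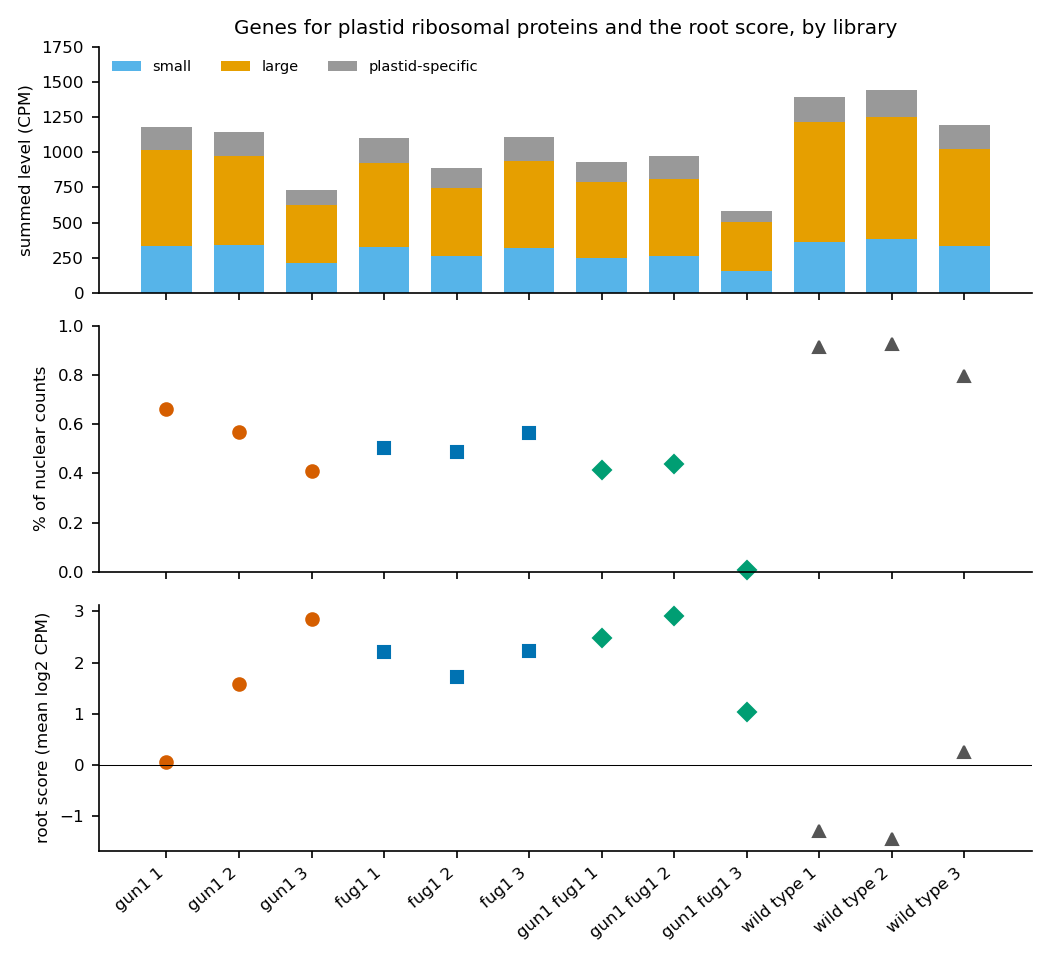
Summed level of the 41 genes by subunit (top, CPM), their share of all counts in nuclear genes (middle, %) and the root score (bottom, mean log2 CPM of 8 root genes) in each of the 12 libraries. The share was 0.41% to 0.662% in gun1, 0.488% to 0.566% in fug1 and 0.00902% to 0.437% in gun1 fug1, all below the 0.796% to 0.926% of wild type. The 0.00902% is that of gun1 fug1 3 alone, and the other double-mutant libraries were at 0.413% and 0.437%.

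Among the small-subunit genes, RPS21 (AT3G27160, annotated as GHS1, chr3:10017321-10019442, 3 exons, plus strand) changed most. It encodes the protein S21 and is known from a mutant with increased sensitivity to glucose. RPS21 had 28.7, 26.3 and 14.1 CPM in gun1, 19.7, 14.6 and 19.5 CPM in fug1 and 16.2, 11.7 and 9.6 CPM in gun1 fug1, against 40.9, 46.6 and 35.2 CPM in wild type. Every mutant library lay below every wild-type library. The log2 fold change was -0.83 ± 0.24 (SE) in gun1 (adjusted p = 0.0389), -1.19 ± 0.24 in fug1 (adjusted p = 0.0023) and -1.62 ± 0.26 in the double mutant (adjusted p = 0.000135).

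With all 12 libraries, RPS1, RPS6 and RPS13 passed in gun1 fug1 and in neither single mutant. RPS1 (AT5G30510), whose bacterial counterpart binds the messenger at initiation, had 60.9, 60.9 and 38.9 CPM in gun1, 52.7, 44.2 and 44.2 CPM in fug1 and 30, 34.6 and 32.4 CPM in gun1 fug1, against 58.2, 62.8 and 52.2 CPM in wild type. The double-mutant libraries agreed closely and lay below all others, while gun1 overlapped wild type. RPS1 was at -0.84 ± 0.22 in gun1 fug1 (adjusted p = 0.00907), and at -0.11 in gun1 and -0.30 in fug1, neither called. RPS6 (AT1G64510) was at -0.83 in gun1 fug1 (adjusted p = 0.0113) and RPS13 (AT5G14320, EMB3137) at -0.76. RPS13 had 31, 29.1 and 8.4 CPM in gun1 fug1, and its call there held in 2 of 12 fits with 1 library left out. It was at -0.49 in gun1 and -0.50 in fug1, with all libraries of both below wild type. Without the library gun1 fug1 3, RPS13 was not called in gun1 fug1 (adjusted p = 0.0507) but was called lower in fug1 (adjusted p = 0.0394). The pattern of RPS13 thus rests on that library.

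RPS9 (AT1G74970), RPS10 (AT3G13120) and RPS20 (AT3G15190, PRPS20) were called in no mutant, with log2 fold changes between -0.61 and 0.05. In bacteria S20 binds ribosomal RNA early in assembly, and the tail of S9 reaches the site of the initiator tRNA.

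Large-subunit genes made up most of the calls, as they did of the 39 genes tested. Of 24 tested, 6 were called lower in gun1, 12 in fug1 and 17 in the double mutant, with median log2 fold changes of -0.51, -0.61 and -0.86. For the 9 small-subunit genes the counts were 1, 1 and 5, with medians of -0.28, -0.30 and -0.62, and for the 6 PSRP genes 1, 2 and 2, with medians of -0.38, -0.38 and -0.54. Of all genes tested, 2.42%, 7.88% and 9.88% were called lower in gun1, fug1 and gun1 fug1. For the small-subunit genes in fug1 the share was 11.1%, near that of all genes. No test of the difference between subunits was made.

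RPL24 (AT5G54600, chr5:22182843-22184610, 4 exons, plus strand), which in bacteria starts the assembly of the large subunit, had 14, 10 and 6.2 CPM in gun1, 10.6, 5.95 and 8.81 CPM in fug1 and 10.3, 9.75 and 12 CPM in gun1 fug1, against 29.7, 30.4 and 17.9 CPM in wild type. All 9 mutant libraries lay below the lowest wild-type library. RPL24 fell by 1.37 ± 0.26 on the log2 scale in gun1 (adjusted p = 0.00393), by 1.63 ± 0.27 in fug1 (adjusted p = 0.000681) and by 1.34 ± 0.29 in the double mutant (adjusted p = 0.00241). RPL31 (AT1G75350, emb2184, chr1:28272071-28273009, 2 exons, plus strand), which in bacteria bridges the subunits, had 11.1, 7.72 and 6.66 CPM in gun1, 8.56, 5.12 and 8.04 CPM in fug1 and 6.52, 7.99 and 7.2 CPM in gun1 fug1, against 20.2, 23.1 and 14.7 CPM in wild type. The groups did not overlap for RPL31 either, and its 3 mutants lay within one range. RPL31 was at -1.18 ± 0.22 in gun1 (adjusted p = 0.00312), -1.42 ± 0.23 in fug1 (adjusted p = 0.000441) and -1.42 ± 0.25 in the double mutant (adjusted p = 0.000401). A gene on the other strand overlaps RPL31, with 12% of its counts.

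RPL6 (AT1G05190, emb2394, chr1:1502251-1503853, 3 exons, minus strand), which in bacteria lies near the site where factors bind, had 28.1, 20.8 and 13.3 CPM in gun1, 16.4, 14.6 and 17.4 CPM in fug1 and 19.6, 14.6 and 8.4 CPM in gun1 fug1, against 41.8, 45.5 and 36.6 CPM in wild type. No mutant library reached the wild-type range. RPL6 was at -0.99 ± 0.24 in gun1 (adjusted p = 0.0175), -1.35 ± 0.25 in fug1 (adjusted p = 0.00106) and -1.40 ± 0.26 in the double mutant (adjusted p = 0.000567). RPL3 (AT2G43030), the other assembly initiator known from bacteria, had 36.6, 35.1 and 23.4 CPM in gun1, 28.8, 24.8 and 34.9 CPM in fug1 and 22.7, 24.3 and 18 CPM in gun1 fug1, against 52.6, 54.7 and 45.4 CPM in wild type. Its groups did not overlap, and it was called in fug1 (-0.78, adjusted p = 0.0144) and gun1 fug1 (-1.19 ± 0.22, adjusted p = 0.000714) but not in gun1 (-0.68, adjusted p = 0.0557).

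RPL29 (AT5G65220), a protein at the exit of the peptide tunnel, had 58.5, 51.8 and 31.3 CPM in gun1, 47.3, 35.4 and 37 CPM in fug1 and 22, 29.2 and 32.4 CPM in gun1 fug1, against 70, 76.9 and 55.7 CPM in wild type. The double-mutant libraries were among the lowest, and gun1 1 overlapped wild type. RPL29 was at -0.76 in fug1 (adjusted p = 0.0294) and -1.31 ± 0.25 in the double mutant (adjusted p = 0.00079), and at -0.52 in gun1 (adjusted p = 0.196). RPL5 (AT4G01310), which like RPL18 binds a small ribosomal RNA of the subunit in bacteria, had 26.6, 25.1 and 15.6 CPM in gun1, 18.5, 14.5 and 23.8 CPM in fug1 and 21.7, 18.8 and 20.4 CPM in gun1 fug1, against 41.3, 36.8 and 32.4 CPM in wild type, with no overlap. It was at -0.96 ± 0.22 in fug1 (adjusted p = 0.00603), at -0.86 in gun1 fug1 (adjusted p = 0.0113) and at -0.72 in gun1 (adjusted p = 0.0546). A gene on the same strand overlaps RPL5, with 40.6% of its counts.

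RPL9 (AT3G44890) had 14.2, 10.2 and 7.12 CPM in gun1, 8.83, 5.95 and 7.07 CPM in fug1 and 8.65, 8.26 and 2.4 CPM in gun1 fug1, against 13.7, 16.8 and 12.9 CPM in wild type. Only gun1 1 reached into the wild-type range. RPL9 was at -0.99 ± 0.25 in fug1 (adjusted p = 0.00932) and -0.88 in the double mutant (adjusted p = 0.0186), and at -0.46 in gun1 (adjusted p = 0.261). RPL15 (AT3G25920), which in bacteria joins late in assembly, and RPL18 (AT1G48350, EMB3105) were likewise called in fug1 (-1.07 and -0.67) and gun1 fug1 (-0.87 and -0.69). Called in gun1 fug1 and in neither single mutant were RPL11 (AT1G32990, PRPL11) at the base of the stalk, RPL13 (AT1G78630, emb1473), RPL21 (AT1G35680, RPL21C), RPL27 (AT5G40950), which in bacteria reaches the peptidyl transferase centre, RPL35 (AT2G24090, PRPL35) and RPL12C, between -1.12 and -0.73. RPL27 had 32.8, 34.1 and 20.1 CPM in gun1, 32.2, 23.1 and 31.7 CPM in fug1 and 23.4, 22.6 and 14.4 CPM in gun1 fug1, against 42.9, 41.7 and 32.6 CPM in wild type. The fug1 and gun1 fug1 libraries all lay below wild type, while gun1 1 and gun1 2 lay within its range. RPL21 was not called without the library gun1 fug1 3 (adjusted p = 0.0582).

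The 6 remaining large-subunit genes passed the test in no mutant. RPL4 (AT1G07320), which lines the peptide tunnel, RPL10 (AT5G13510, EMB3136), which anchors the stalk, RPL17 (AT3G54210), RPL28 (AT2G33450, PRPL28) and RPL34 (AT1G29070) had log2 fold changes between -0.64 and 0.18. RPL10 had 21.7, 14.9 and 13.2 CPM in gun1, 17.1, 18.5 and 27 CPM in fug1 and 24.5, 20.6 and 2.4 CPM in gun1 fug1, against 22.7, 15.6 and 17.2 CPM in wild type, and all groups overlapped. RPL1 (AT3G63490, EMB3126), the stalk beside the exit site of the tRNA, had 51.2, 51.1 and 42.3 CPM in gun1, 59.8, 51.4 and 63.3 CPM in fug1 and 80.3, 70.2 and 55.2 CPM in gun1 fug1, against 55.4, 55.9 and 48 CPM in wild type. The first 2 double-mutant libraries were the highest of the 12, and the third lay within the wild-type range. RPL1 was at -0.14 in gun1, 0.13 in fug1 and 0.39 ± 0.21 in the double mutant (adjusted p = 0.189), where it was at -0.64 when scaled by library totals alone. Without the library gun1 fug1 3 it was called higher in gun1 fug1, at 0.50 (adjusted p = 0.0374).

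**Figure D4:**
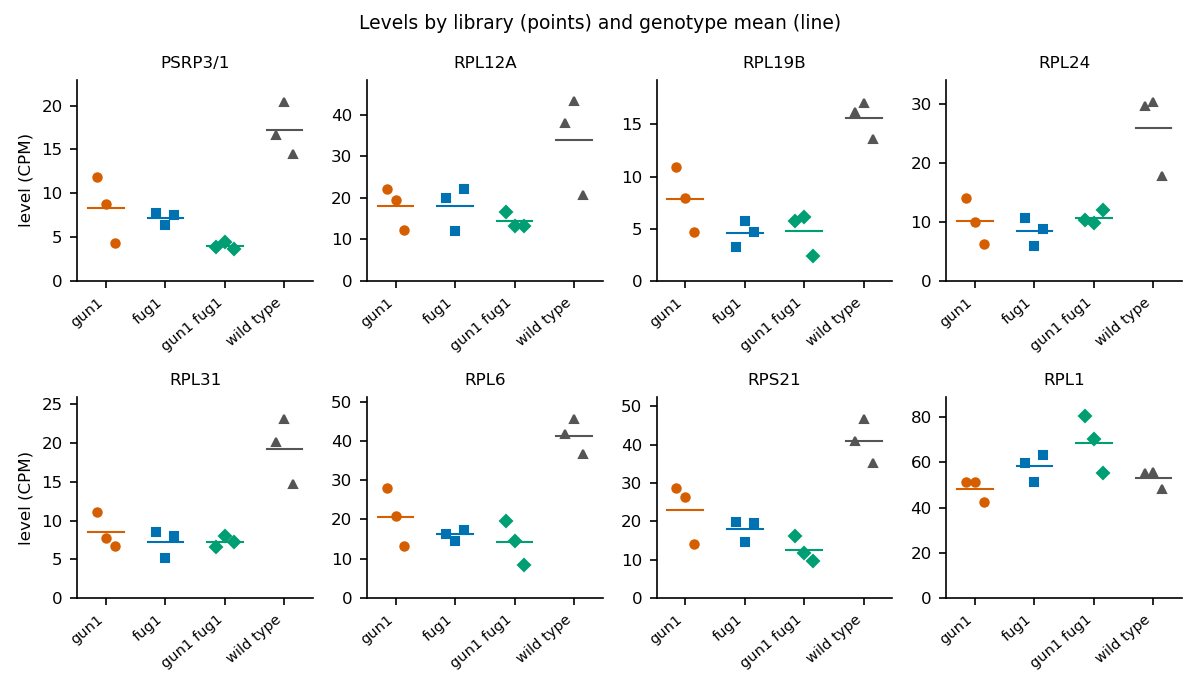
Level (CPM, y axis from 0) in each library (points) and genotype mean (line) for the 7 genes called lower in all 3 mutants and for RPL1. For PSRP3/1, RPL19B, RPL24, RPL31, RPL6 and RPS21 every mutant point lies below every wild-type point, for RPL12A the wild-type point at 20.6 lies among those of gun1 and fug1, and for RPL1 the double mutant reaches 80.3.

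Among the plastid-specific proteins, PSRP3/1 (AT1G68590, chr1:25757404-25758411, 2 exons, minus strand) encodes a small-subunit protein related to Ycf65 of cyanobacteria. It had 11.8, 8.75 and 4.36 CPM in gun1, 7.74, 6.31 and 7.55 CPM in fug1 and 3.87, 4.46 and 3.6 CPM in gun1 fug1, against 16.7, 20.4 and 14.5 CPM in wild type. The groups did not overlap, and all double-mutant libraries lay below those of fug1. The log2 fold change was -1.05 ± 0.24 in gun1 (adjusted p = 0.014), -1.26 ± 0.25 in fug1 (adjusted p = 0.00241) and -2.06 ± 0.29 in the double mutant (adjusted p = 4.98e-05). PSRP2 (AT3G52150), an RNA-binding protein of the small subunit, had 11.3, 10.5 and 8.73 CPM in gun1, 8.15, 7.98 and 10.8 CPM in fug1 and 8.5, 7.24 and 8.4 CPM in gun1 fug1, against 15.9, 16.8 and 11.5 CPM in wild type. Its groups did not overlap either, and it was called in fug1 (-0.71, adjusted p = 0.0191) and gun1 fug1 (-0.89, adjusted p = 0.00568).

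PSRP1 (AT5G24490), a relative of the bacterial factors that hold idle ribosomes, PSRP4 (AT2G38140), the counterpart of a small basic protein of some bacteria, and PSRP5 (AT3G56910) and PSRP6 (AT5G17870), both of the large subunit, were called in no mutant. PSRP1 had 18.8, 19.3 and 14.9 CPM in gun1, 19.3, 17.9 and 21.3 CPM in fug1 and 26.7, 25.9 and 14.4 CPM in gun1 fug1, against 24, 35.5 and 25.6 CPM in wild type. Its single mutants lay below wild type, and gun1 fug1 overlapped it. PSRP6 had 48.4, 56.3 and 34.4 CPM in gun1, 63.7, 50.6 and 57.2 CPM in fug1 and 49.5, 57.1 and 18 CPM in gun1 fug1, against 41.8, 42 and 42 CPM in wild type. All fug1 libraries, and all but 1 library each of gun1 and gun1 fug1, exceeded the wild-type libraries. PSRP6 was at 0.15 ± 0.27 in gun1, 0.45 ± 0.27 in fug1 (adjusted p = 0.251) and 0.07 in the double mutant, and below 0 in both single mutants when scaled by library totals alone.

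The share of a subunit in the set's counts needs no scaling. Large-subunit genes took 57.8%, 55.4% and 56% of the set's counts in gun1, 54.3%, 54.2% and 55.9% in fug1 and 57.7%, 56.2% and 60.3% in the double mutant, against 61.4%, 60.7% and 58.1% in wild type. All gun1 and fug1 libraries lay below all wild-type libraries, and gun1 fug1 overlapped wild type. Summed over all members, levels were 930.4, 971.6 and 580.6 CPM in gun1 fug1, the lowest being that of gun1 fug1 3. In summed CPM, large-subunit genes had 576 ± 144 in gun1, 566 ± 74.4 in fug1 and 478 ± 111 in the double mutant, against 809 ± 98.5 in wild type (SD, n = 3). Small-subunit genes had 296 ± 69.9, 304 ± 33.4 and 223 ± 61.5 CPM in gun1, fug1 and gun1 fug1, against 357 ± 24.9 CPM in wild type, and PSRP genes 148 ± 35.3, 162 ± 19.2 and 127 ± 43 CPM, against 178 ± 8.13 CPM. RPL1 alone took 4.85% ± 0.79 of the set's counts in gun1, 5.65% ± 0.2 in fug1 and 8.45% ± 1.15 in the double mutant, against 3.96% ± 0.067 in wild type, and its lowest library in each mutant lay above the highest of wild type.

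The gene copies were compared by their share of the counts of their family, which needs no scaling. RPL19 bridges the subunits in bacteria and has 2 nuclear genes, RPL19A (AT4G17560, chr4:9780224-9782183, plus strand) and RPL19B (AT5G47190, chr5:19164184-19166135, minus strand), each with 5 exons and 81.9% identical in coding sequence, with no identical run above 43 bases. RPL19B held 71.6%, 66.9% and 64.9% of RPL19 counts in gun1, 55.8%, 66.7% and 47.5% in fug1 and 49.7%, 52.8% and 40% in the double mutant, against 65.5%, 71.2% and 66.8% in wild type. All double-mutant libraries lay below wild type, gun1 overlapped it, and 1 fug1 library did. The difference was -20.4 percentage points in gun1 fug1, with a two-sided exact permutation p of 0.1, the smallest that 3 against 3 can give, and 0.72 after Benjamini-Hochberg adjustment over 9 such tests. For gun1 and fug1 the exact permutation p was 1 and 0.2. The share in gun1 fug1 3 rests on 5 counts, and whichever of the libraries was left out, the difference in gun1 fug1 lay between -23.03 and -16.63 points.

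In levels, RPL19A had 4.33, 3.95 and 2.53 CPM in gun1, 2.58, 2.86 and 5.13 CPM in fug1 and 5.77, 5.48 and 3.6 CPM in gun1 fug1, against 8.52, 6.91 and 6.75 CPM in wild type. RPL19B had 10.9, 7.98 and 4.67 CPM in gun1, 3.26, 5.72 and 4.65 CPM in fug1 and 5.69, 6.13 and 2.4 CPM in gun1 fug1, against 16.2, 17.1 and 13.6 CPM in wild type. Both copies were below wild type in every mutant library. RPL19A was at -1.04 ± 0.25 in gun1 (adjusted p = 0.0175), -1.04 ± 0.26 in fug1 (adjusted p = 0.00973) and -0.44 ± 0.27 in the double mutant, where it was not called (adjusted p = 0.243). RPL19B was at -0.99 ± 0.24 in gun1 (adjusted p = 0.0192), -1.77 ± 0.27 in fug1 (adjusted p = 0.000229) and -1.48 ± 0.28 in the double mutant (adjusted p = 0.000752).

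RPL12A had 22, 19.5 and 12.2 CPM in gun1, 19.8, 12 and 22.1 CPM in fug1 and 16.6, 13.2 and 13.2 CPM in gun1 fug1, against 38.1, 43.2 and 20.6 CPM in wild type. RPL12C had 34.9, 31.4 and 17.1 CPM in gun1, 29.9, 25 and 34.3 CPM in fug1 and 22.9, 20.9 and 8.4 CPM in gun1 fug1, against 43.6, 43.1 and 39.3 CPM in wild type. RPL12C did not overlap between mutants and wild type, whereas the third wild-type library of RPL12A lay within the range of gun1 and of fug1. RPL12A was at -0.93 ± 0.27 in gun1 (adjusted p = 0.0486, and 0.0719 without gun1 fug1 3), -0.92 ± 0.28 in fug1 (adjusted p = 0.0271) and -1.22 ± 0.29 in the double mutant (adjusted p = 0.00626). RPL12C was at -0.59 ± 0.25 in gun1 (adjusted p = 0.17), -0.50 ± 0.26 in fug1 (adjusted p = 0.179) and -1.12 ± 0.27 in the double mutant (adjusted p = 0.00509). As the shared run shows, how these counts divide between the 2 genes is uncertain.

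RPL12A held 39.5% ± 1.77 of RPL12 counts in gun1, 37.2% ± 4.09 in fug1 and 47.3% ± 12.1 in the double mutant, against 43.7% ± 8.23 in wild type (SD, n = 3; exact permutation p = 0.4, 0.3 and 0.8). PSRP3/1 held 95.2% ± 3.09 of PSRP3 counts in gun1, 95.3% ± 2.01 in fug1 and 97.4% ± 2.25 in the double mutant, against 96.9% ± 0.928 in wild type (exact permutation p = 0.5, 0.4 and 0.8). In gun1 fug1 3 the share of RPL12A was 61.1%, from 11 of 18 counts, against 42% and 38.7% in the other double-mutant libraries. Without that library its difference from wild type was -3.35 points. The share of PSRP3/1 in gun1 fug1 3 was 100%, from 3 counts. For these families each difference was smaller than the larger SD of the groups compared.

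**Figure D5:**
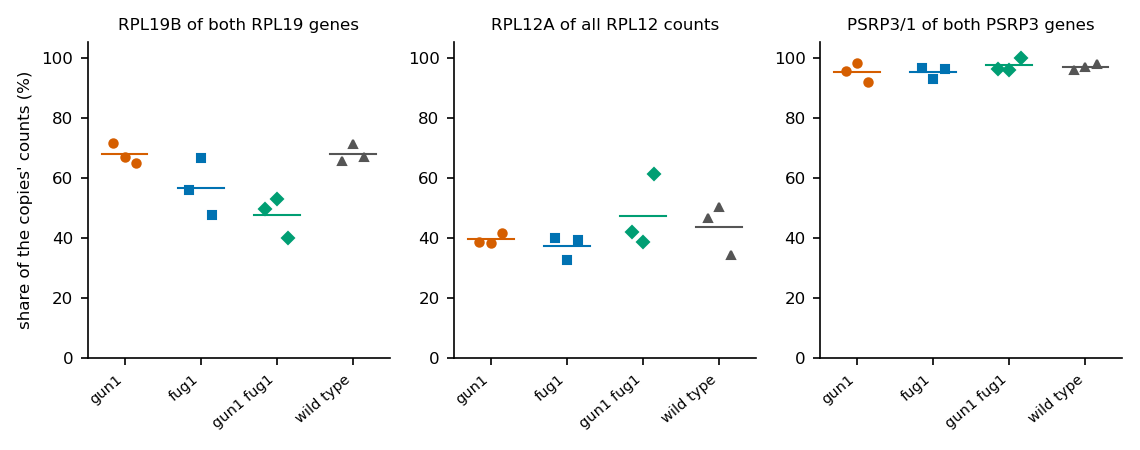
Share of 1 gene copy in the counts of its family (y axis, %) in each library (points) and genotype mean (line). RPL19B lies between 40% and 52.8% in the double mutant, below the 65.5% to 71.2% of wild type. PSRP3/1 stays between 91.9% and 100% in every library. Points of gun1 fug1 3 rest on 5 (RPL19), 18 (RPL12) and 3 (PSRP3) counts.

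The double mutant was set against each single mutant, which asks what the second mutation adds. Against gun1, 0 of 39 genes were called in gun1 fug1 (3.09% of all genes tested, 1.61% higher and 1.48% lower), 8 had an unadjusted p under 0.05 and DESeq2 called 4, and the median was -0.29. Against fug1, 0 were called (0.267% of all, 0.163% higher and 0.104% lower), 5 had an unadjusted p under 0.05 and DESeq2 called 0, and the median was -0.30. PSRP3/1 was at -1.02 ± 0.30 against gun1 (adjusted p = 0.0607) and -0.81 ± 0.31 against fug1 (adjusted p = 0.299). Without the library gun1 fug1 3, RPS1 (adjusted p = 0.0403) and RPL29 (adjusted p = 0.0382) were called lower and RPL1 (0.65, adjusted p = 0.0319) higher against gun1. With all libraries, these were at -0.73 ± 0.22 (RPS1), -0.80 ± 0.25 (RPL29) and 0.53 ± 0.21 (RPL1), with adjusted p = 0.0661, 0.0757 and 0.166. RPL19A lay on the other side of 0 in both, at 0.59 ± 0.28 against gun1 (adjusted p = 0.264) and 0.60 ± 0.30 against fug1 (adjusted p = 0.452), as did PSRP1 against fug1 at 0.29 ± 0.23 (adjusted p = 0.664).

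Set directly against gun1, fug1 had 0 genes called (0.026% of all genes tested, 0.0195% higher and 0.00651% lower), 2 with an unadjusted p under 0.05 and 0 called by DESeq2, and a median of 0.00. RPL19B was at -0.79 ± 0.28 (adjusted p = 0.686), and the largest positive differences were 0.33 ± 0.36 for RPL10 (adjusted p = 0.907) and 0.30 ± 0.27 for PSRP6 (adjusted p = 0.884). These misses do not show that the single mutants are alike.

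The interaction asks whether the effects of both mutations add up: it is the difference of gun1 fug1 minus fug1 less the difference of gun1 minus wild type. Of 39 genes 2 were called, both above 0, against 1.34% of all genes tested in either direction with 0.8% above and 0.54% below 0. RPL24 was at 1.65 ± 0.39 (adjusted p = 0.0398) and RPL19A at 1.63 ± 0.39 (adjusted p = 0.0369). For both, the double mutant lay less far below wild type than the sum of the single mutants' log2 changes. The median was 0.18, against -0.08 for all genes, and 9 of 39 had an unadjusted p under 0.05. RPL31 (1.18 ± 0.35, adjusted p = 0.0811) and RPL19B (1.28 ± 0.39, adjusted p = 0.0936) did not pass. PSRP6 was at -0.52. With gun1 fug1 3 left out, RPL19A (adjusted p = 0.0165) and PSRP1 (1.12, adjusted p = 0.0211) passed and RPL24 did not (adjusted p = 0.0543). Of the 12 fits with 1 library left out, RPL24 passed in 2 and RPL19A in 4.

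The plastid's own genes for ribosomal proteins were tested from a list. Of 26 such IDs, 18 were tested. In gun1, 0 were called, with a median log2 fold change of -1.05, and without the library gun1 fug1 3 5 were called lower. In fug1, rps19 (ATCG00820) was called higher (1.14 ± 0.26, adjusted p = 0.00508) and rps2 (ATCG00160) lower (-2.06, adjusted p = 0.0473), with a median of -0.01, and without the library gun1 fug1 3 these calls became 5 higher and 2 lower. In gun1 fug1, 5 were called higher, with a median of 2.69, which became 0.52 without the library gun1 fug1 3, with 6 higher and 2 lower. The level of rps19 was 9.36, 6.61 and 5.82 CPM in gun1, 16.3, 20 and 18.2 CPM in fug1 and 27.4, 22.9 and 56.4 CPM in gun1 fug1, against 8.79, 9.34 and 6.58 CPM in wild type. The fug1 and gun1 fug1 libraries all exceeded wild type, and gun1 overlapped it. In gun1 fug1, rps19 was at 1.94 ± 0.27 (adjusted p = 4.39e-05).

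Of 22 nuclear genes for the assembly of plastid ribosomes, which process ribosomal RNA or join proteins to it, 5 were called lower in gun1, 4 in fug1 and 1 in the double mutant, where 1 was called higher. SOT1 (AT5G46580), a pentatricopeptide repeat protein for the maturation of ribosomal RNA, was lower in all 3 mutants, at -1.43 in gun1 (adjusted p = 0.0162), -2.11 in fug1 (adjusted p = 0.0014) and -1.81 in the double mutant (adjusted p = 0.00304). It had 1.93, 1.46 and 0.765 CPM in gun1, 0.543, 0.595 and 1.36 CPM in fug1 and 1.14, 1.11 and 0 CPM in gun1 fug1, against 4.56, 3.9 and 2.79 CPM in wild type, without overlap. SVR3 (AT5G13650), a GTPase of the TypA kind, was called in gun1 (-1.06, adjusted p = 0.00726) and fug1 (-1.22, adjusted p = 0.00136), and in the double mutant it was at -0.60 (adjusted p = 0.0682). SVR3 had 24.6, 17.6 and 16 CPM in gun1, 20, 16.1 and 16.3 CPM in fug1 and 33.1, 23.2 and 21.6 CPM in gun1 fug1, against 47, 44.4 and 30.1 CPM in wild type. The single mutants lay below wild type throughout, and 1 double-mutant library overlapped it. The gene called higher in gun1 fug1 was RNJ (AT5G63420), the RNase J, at 1.41 (adjusted p = 0.0344, and 0.0586 without gun1 fug1 3). The interaction was above 0 and called for 3 of the 22: SVR3 (1.68, adjusted p = 0.0128), DER (AT3G12080; 1.75, adjusted p = 0.0203) and RH50 (AT3G06980; 1.47, adjusted p = 0.0396).

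Genes whose annotated product names a ribosomal protein of a cytosolic subunit by its size were counted beside them, 23 in all. Cytosolic ribosomal genes annotated in other words are left out, so the list may hold only a part of them. Of 14 tested, 3 were called higher in gun1, 4 higher and 1 lower in fug1 and 5 higher in gun1 fug1. Of all genes tested, 3.52%, 9.94% and 12% were called higher in these mutants, and 7.88% lower in fug1. The medians of the 14 genes were 0.32, 0.28 and -0.20. Within the plastid set, site II elements were found in called and uncalled genes alike. In gun1, 3 of 14 tested genes with a site II element and 5 of 25 without one were called lower. In fug1 these counts were 6 of 14 and 9 of 25, and in gun1 fug1 8 of 14 and 16 of 25. Of the promoters printed above, those of RPL6 and RPS21 belong to genes called in all 3 mutants, with 3 and 0 elements.

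Reads at overlapping genes limit some of these values. The loci of 17 of the 41 genes overlap another annotated gene, and for 12 of them a partner had a count of at least 0.1 of the gene's own, among them RPS6, RPS13, RPS20, PSRP3/2, PSRP5, RPL1, RPL5, RPL10, RPL18, RPL28 and RPL31. The share was 76.5% for RPL10 and 75.9% for PSRP5, neither of which was called against wild type with all 12 libraries. The strand setting of the counting is not given in the sources used here.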

How the data were processed

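Total RNA of whole seedlings was sequenced on TruSeq libraries, per the labels' protocols. Per the submitters' processing notes, Trimmomatic, FastQC, TopHat2 2.1.1, featureCounts and TAIR10 were used; the annotation version, the strand setting and the handling of reads with several matches are not given in the sources used here. The authors deposited raw counts per gene and library, one table of 36917 IDs per library. In gun1 fug1, the numbers in file names are 1 above those in the titles, and the titles were used.

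Counts were tested with edgeR 4.0.16 (R 4.3.3): genes were filtered by filterByExpr with genotype as group, libraries were scaled by TMM factors, and quasi-likelihood F tests (robust) ran in one fit of the 12 libraries, in which genotype was the sole factor. Adjusted p-values are Benjamini-Hochberg values over 15371 genes, and a gene was called under 0.05. Levels are CPM after TMM scaling, and log2 CPM used a prior count of 2. Two-sided exact permutation tests compared the shares of gene copies (scipy 1.17.1). The scripts were tested on simulated counts, with 200 changed genes drawn at random from those tested. The test recovered 89.6%, 82.1% and 79.1% of 4-fold changes in gun1, fug1 and gun1 fug1. For 2-fold changes it recovered 28.4%, 25.4% and 13.4%, and for 1.5-fold changes 7.58%, 3.03% and 0%. A gene that was not called may thus still have changed. Alternatives were DESeq2 1.42.0, other scaling, filters, thresholds and covariates, a replicate block, the compared genotypes alone, and each library left out in turn. The root score without gun1 fug1 3 and the share of nuclear counts were chosen after seeing the data.

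The members and lists were chosen with earlier results of these data known. Single results of 2 of the 41 genes and 1 promoter sequence are not reported here. Called genes (all up to 10, otherwise the 8 of smallest p) are given with values, as are the 2 members farthest in the direction opposite to most, the gene copies, and up to 3 genes of smallest p per other list. The library values of RPS1, PSRP1, PSRP2 and RPL27 go beyond that rule and were chosen after they were seen. Sequences are from RefSeq, TAIR10.1, matched by gene ID for all 41 genes. Total counts per library were 8519197 to 12360838, and the counts in the set, fewest in gun1 fug1 3 (484), limit the precision.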

Additional observations from a re-analysis of the deposited data

Results flagged for a closer look

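A pair of genes was called in the test of the difference itself, between the effect of the gun1 mutation in fug1 seedlings and its effect in wild type. The interaction of RPL24 was 1.65 ± 0.39 on the log2 scale (edgeR adjusted p = 0.0398), with the effect at 0.29 ± 0.30 in fug1 and -1.37 ± 0.26 in wild type. The interaction of RPL19A was 1.63 ± 0.39 (edgeR adjusted p = 0.0369), with the effect at 0.60 ± 0.30 in fug1 and -1.04 ± 0.25 in wild type. Without the library gun1 fug1 3 the adjusted p was 0.0543 for RPL24 and 0.0165 for RPL19A. Of the 12 fits with 1 library left out, RPL24 was called in 2 and RPL19A in 4. Neither was called at an adjusted p under 0.01 or with the root score, so these calls depend on single libraries and settings.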

How the results depend on the processing

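Counts of called members in gun1, fug1 and gun1 fug1 against wild type stayed within 1.5 times of 8, 15 and 24 with RLE factors (11, 15, 27), organelle genes left out (11, 15, 27), no filter (11, 15, 26), a stricter filter (12, 19, 26) and DESeq2 (11, 16, 27). Of all genes, 9.86%, 29.6% and 36.1% were called in either direction with the stricter filter. There 321, 882 and 1030 of 5540 genes were called lower. The shares were 6.1%, 17.8% and 21.9% with RLE factors, and 6.23%, 18.1% and 22.3% with organelle genes left out. They were 5.02%, 10.3% and 12.8% with no filter and 3.55%, 9.24% and 11.6% with DESeq2. Fits with no filter or with DESeq2 held 29178 genes, against 15371 in the main fit. Their shares here and below thus have a wider base and cannot be set directly against the others. The member counts became 2, 9 and 12 at an adjusted p under 0.01. With only the compared genotypes the member counts were 5 in gun1, all lower, and 25 in fug1, of which 23 were lower and 2 higher. In those fits 4.88% and 27.5% of all genes were called. With library totals the member counts were 0, 0 and 0, and without gun1 fug1 3 as well 37 in gun1 and 40 in fug1. In the latter fit 35.4% and 74.6% of all genes were called. All genes shifted too, with medians of -0.54, -1.16 and -1.17 with all 12 libraries. With the root score the member counts were 0, 0 and 0, with or without gun1 fug1 3. Few genes of any kind were then called (0.0651%, 0.0455% and 0.852% of all with 12 libraries). The cause of these moves was not tested.

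The main fit did not pair samples by replicate number. Same-numbered libraries correlated at -0.082 to 0.36 in their deviations, others at -0.388 to 0.167. The highest values were of wild type 3 with gun1 3 (0.36) and wild type 1 with gun1 1 (0.315). The lowest was of wild type 3 with gun1 1. Whether libraries of 1 number belong together was not tested. With the replicate number as a block, the counts were 11, 15 and 27 against wild type (8.44%, 19.9% and 25.3% of all genes). They were 3 for gun1 fug1 against gun1 (5.19% of all genes), and RPL19A in fug1 against gun1 turned to 0.017. Against gun1, gun1 fug1 had 4 called with DESeq2 (3.05% of all genes), 3 with no filter (2.72%) and 2 with the stricter filter (10.5%). Without gun1 fug1 3 it had 2 with library totals (3.4%) and 3 with the root score (7.12%). Library totals without gun1 fug1 3 gave 9 against fug1 (17.1% of all genes) and 22 for fug1 against gun1 (25.6%). The interaction had 0 called at 0.01, with library totals and with the root score in either form. It had 39 with library totals without gun1 fug1 3 (44.5% of all genes), and 4 each with no filter (2.17%) and DESeq2 (1.62%).

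With 1 library left out, calls ranged over 2 to 13 in gun1, 7 to 18 in fug1, 15 to 27 in gun1 fug1, 0 to 4 for gun1 fug1 against gun1, 0 to 0 against fug1, 0 to 0 for fug1 against gun1 and 0 to 5 for the interaction. The interaction had 0 without gun1 2, gun1 3, fug1 1, fug1 2, gun1 fug1 1, gun1 fug1 2, wild type 1 or wild type 2, 1 without fug1 3 and 5 without gun1 1. Against gun1, gun1 fug1 had 4 without gun1 3 and 3 without gun1 fug1 3. Over these fits, log2 values that crossed 0 ranged from -0.017 to 0.29 (PSRP6 in gun1), and in fug1 against gun1 from -0.52 to 0.14 (PSRP3/1), -0.21 to 0.23 (RPL12A), -0.16 to 0.29 (RPL12C) and -0.41 to 0.16 (RPL19A). In the interaction they ranged from -0.082 to 0.30 (median), -0.053 to 0.60 (PSRP3/1) and -0.28 to 0.17 (RPL12C). Copy shares that crossed 0 ranged from -3.35 to 7.86 points (RPL12A in gun1 fug1), -1.97 to 1.61 (RPL19B in gun1) and -0.77 to 1.23 (PSRP3/1 in gun1 fug1).

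Other values that changed sign were as follows. With library totals, PSRP6 was at -0.43 and -0.71 in gun1 and fug1, and RPL1 at -0.64 in gun1 fug1. In fug1 against gun1, RPL10 was then at -0.26, PSRP6 at -0.28, RPL12A at -0.58 and RPL12C at -0.49, and in the interaction PSRP6 was at 0.33 and RPL12C at 0.72. With library totals and without gun1 fug1 3 these values were the same to 2 decimals for the single mutants (PSRP6 in fug1 then at adjusted p = 0.00117 by edgeR), and in gun1 fug1 RPL1 was at -0.087, against fug1 RPL12A was at 0.29 and RPL12C at 0.13, and in the interaction PSRP6 was at 0.90 and RPL12C at 1.29. With the root score, PSRP6 was at -0.0092 in gun1, RPL12A at 0.023 in fug1, RPL19A at 0.059 in gun1 fug1 and RPL12A at 0.043 in gun1 fug1 against gun1. In fug1 against gun1 PSRP3/1 was then at 0.068 and RPL19A at 0.11, and in the interaction the median was -0.049 and PSRP3/1 -0.30. When gun1 fug1 3 was left out under the root score, fug1 had a median of 0.12, RPL12A at 0.19 and RPL12C at 0.18, and gun1 fug1 had RPL24 at 0.042, RPL12A at 0.13 and RPL19A at 0.23. Against gun1, gun1 fug1 then had RPL12A at 0.22 and RPL19B at 0.060, and fug1 had PSRP3/1 at 0.085 and RPL19A at 0.14, while the interaction had a median of -0.047 and PSRP3/1 at -0.27. In fug1 against gun1, RPL12A was at -0.0080 with RLE factors, -0.0098 with no filter, -0.033 with the stricter filter, -0.011 with the compared genotypes alone and -0.010 with DESeq2. In the interaction, RPL12C was at 0.0012 with RLE factors, 0.0034 with organelle genes left out and 0.11 with the stricter filter. The library gun1 fug1 3 had a median of 10 counts per tested gene of the set, which limits what it can show.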
